A study of Mus musculus with 9 samples.

Results

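Direct-pathway striatal-like neurons are defined here as GABAergic nuclei that carried striatal projection neuron genes and the dopamine D1 receptor gene Drd1, but no transcript of the dopamine D2 receptor gene Drd2 or of the adenosine receptor gene Adora2a. Members were chosen by their measured UMI counts of these genes. A nucleus was a member, called a Drd1 neuron below, when it had 200 to 5000 genes, at most 10% mitochondrial transcripts, at least 1 unique molecular identifier (UMI, a count of 1 captured RNA molecule) of Gad1 and Gad2 together, at most 1 UMI of Slc17a7, at least 1 UMI in each of 2 or more of the 5 genes Rgs9, Pde10a, Ppp1r1b, Rarb and Syndig1l, at least 1 UMI of Drd1 and none of Drd2 or Adora2a. The members numbered 1427, or 1.91% of the 74895 nuclei kept of 77823 barcodes. Of 7912 kept nuclei that met the rule apart from the receptors, 1912 had Drd2 or Adora2a without Drd1 and are called Drd2 neurons, 99 had both and 4474 had neither. The receptor and striatal genes chose the members, so their levels are given as a description only.

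The data came from single-nucleus RNA sequencing of pooled cortex and hippocampus of 9 male C57BL/6 wild-type mice, with 1 library per mouse and 3 mice per group. Young AAV-EGFP mice were 5 months old, and aged AAV-EGFP and aged AAV-B3GNT3 mice were 19 months old. All mice had received, by retro-orbital injection 8 weeks before collection, an adeno-associated virus (AAV) with the PHP.V1 capsid, which targets brain vessels, and the endothelial promoter sCLDN5. The virus expressed EGFP, a fluorescent protein, or EGFP-P2A-B3GNT3, which adds a glycosyltransferase of mucin-type O-glycans, so that EGFP was shared by all 3 groups and no vector was directed at neurons. Young and aged mice came from different suppliers, so age cannot be told apart from source. The comparisons asked what differed with age (aged against young AAV-EGFP) and with the enzyme (aged AAV-B3GNT3 against aged AAV-EGFP), and both use the same aged AAV-EGFP libraries.

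Spiny projection neurons are the GABAergic output cells of the striatum. Those of the direct pathway carry D1 receptors, which raise cyclic AMP, make substance P and dynorphin, and project to the substantia nigra and internal pallidum. Those of the indirect pathway carry D2 receptors and the adenosine receptor encoded by Adora2a, make enkephalin and project to the external pallidum. The labelled tissue was cortex and hippocampus, whereas the genes of these nuclei are those of the neighbouring striatum; whether striatal tissue entered the dissection was not tested.

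Because the receptors Drd1 and Drd2 separate both kinds of neuron, and Tac1, which encodes substance P, is a peptide gene of the direct pathway that the rule did not use, their upstream sequences are shown first. Each is the 250 bases before a RefSeq gene start, from GRCm38.p6, written 5′ to 3′ on the gene's strand. Capitals mark matches, on either strand, to the cyclic AMP response element half-site TGACG, the GC box GGGCGG or the TATA box TATAAA. Over 32851 such windows of the genome, 17.8% held the first, 32.7% the second and 12.4% the third, and a match is a description of letters only. Drd1 has 2 starts, at chr13:54055659-54055908 and chr13:54054781-54055030 (minus strand), with no match in the first window and 1 GC box in the second. Drd2 at chr9:49340153-49340402 (plus strand) held 2 GC boxes. Tac1 at chr6:7554811-7555060 (plus strand) held 2 half-sites and 1 GC box. Pdyn, the dynorphin gene and also outside the rule, had no match at chr2:129699939-129700188 or chr2:129698659-129698908 (minus strand). Its sequences are not shown.
Drd1, first window: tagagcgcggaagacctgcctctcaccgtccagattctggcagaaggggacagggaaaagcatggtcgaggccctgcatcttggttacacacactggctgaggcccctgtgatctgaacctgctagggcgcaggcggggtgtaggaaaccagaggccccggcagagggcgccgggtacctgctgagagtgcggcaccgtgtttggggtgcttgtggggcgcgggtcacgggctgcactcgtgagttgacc
Drd1, second window: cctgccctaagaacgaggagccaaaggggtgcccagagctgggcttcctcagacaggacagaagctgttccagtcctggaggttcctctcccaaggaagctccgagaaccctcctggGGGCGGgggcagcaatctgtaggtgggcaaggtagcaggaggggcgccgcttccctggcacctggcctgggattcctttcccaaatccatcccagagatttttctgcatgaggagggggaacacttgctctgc
Drd2: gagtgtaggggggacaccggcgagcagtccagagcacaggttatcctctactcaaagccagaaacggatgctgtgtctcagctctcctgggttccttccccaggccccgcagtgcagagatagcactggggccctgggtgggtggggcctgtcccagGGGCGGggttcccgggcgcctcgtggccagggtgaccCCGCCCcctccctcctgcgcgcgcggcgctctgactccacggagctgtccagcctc
Tac1: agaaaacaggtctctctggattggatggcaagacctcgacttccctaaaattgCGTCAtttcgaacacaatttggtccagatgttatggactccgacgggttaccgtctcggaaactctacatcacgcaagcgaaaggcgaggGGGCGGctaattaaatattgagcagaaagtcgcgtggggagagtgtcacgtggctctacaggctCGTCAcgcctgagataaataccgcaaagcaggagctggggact

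The 9 libraries held 568993541 UMIs, of which 15090847 were in Drd1 neurons, between 875583 and 2870488 per library. The numbers of Drd1 neurons were 89, 273 and 75 in young AAV-EGFP replicates 1 to 3, 163, 208 and 254 in the aged control mice and 104, 120 and 141 after AAV-B3GNT3. No barcode of a Drd1 neuron was shared between libraries. Mitochondrial transcripts made 0.0028 to 0.0104% of UMIs in Drd1 neurons. Per library, 5.77 to 15.9% of Drd1 neurons were marked as doublets, against 5.07 to 8.21% of all barcodes. The share was higher among Drd1 neurons in every library except aged AAV-B3GNT3 replicate 3 (6.38 against 7.15%). The fraction of oligodendrocyte markers in the UMIs of Drd1 neurons was 18.6 to 44.7% of that over all barcodes of the library. This ratio served as a rough estimate of free RNA. Doublets and low expression in the neurons cannot be told apart from free RNA by it, and empty droplets were not used. Markers of other cells were present. Summed over each list, vascular markers reached 8.72 to 31.6 CPM (UMIs per 1000000 of the summed UMIs of a mouse's Drd1 neurons), microglial markers 32 to 79.7 and oligodendrocyte markers 303 to 630 CPM of Drd1 neurons. Oligodendrocyte precursor markers summed to 833 to 1322 CPM, against 1037 to 1333 in all kept nuclei, most of it Tnr and Lhfpl3, and astrocyte markers to 1200 to 1889 CPM.

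Most members stood close to at least 1 limit of the rule. Drd1 was counted once in 837 neurons, 58.7% of the members, and at most 6 times in a neuron. Oligodendrocyte nuclei held Drd1 in 0.665 to 1.52% per library. Their median depth was 1628 to 2513 UMIs, against 8211.5 to 11211 in members. How many members entered through a stray Drd1 molecule was not tested. Of the 5 striatal genes, 2 were detected in 171 neurons, 3 in 357, 4 in 539 and all 5 in 360, while 197 further nuclei missed membership with 1 striatal gene. At the GABAergic limit, 217 members had a single UMI of Gad1 and Gad2, and 322 nuclei were left out for having none. At the limit on the glutamatergic gene Slc17a7, 131 members had 1 UMI, and 22 nuclei with 2 were left out. A further 107 nuclei met every other condition but held more than 5000 genes.

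The striatal genes of the rule were detected in unequal shares of Drd1 neurons. Pde10a, a phosphodiesterase of spiny neurons, was detected in 99.2 to 100% of them, Rarb, a retinoic acid receptor, in 89.9 to 97.5%, Rgs9, which speeds the inactivation of G proteins, in 83.1 to 93.3%, while Ppp1r1b, which encodes the dopamine-regulated phosphatase inhibitor DARPP-32, reached 39.3 to 69.2% and Syndig1l 21.7 to 49.0%. Genes outside the rule that are known from spiny neurons were also common. The transcription factors Foxp1, Bcl11b and Meis2 were detected in 91.7 to 97.6%, 86.5 to 96.2% and 82.0 to 95.8% of Drd1 neurons. The sodium channel subunit gene Scn4b reached 28.8 to 51.6%. Not all of these genes were particular to the neurons. Oligodendrocyte nuclei, read at a lower depth, held Foxp1 in 39.1 to 53.2%, Meis2 in 19.2 to 35.9% and Pde10a in 16.9 to 55.0%. In the same nuclei Bcl11b was at 4.32 to 10.9%, Rarb at 2.57 to 9.53% and Rgs9 at 2.11 to 6.61%. Drd2 neurons held Foxp1 in 96.1 to 100% and Meis2 in 87.1 to 96.6%.

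Tac1, Pdyn and Isl1, genes of the direct pathway that the rule did not use, separated Drd1 neurons from Drd2 neurons in every library. The ranges of Eya1, a further gene listed for the direct pathway, overlapped, at 13.3 to 27.4% of Drd1 and 5.31 to 15.1% of Drd2 neurons. Tac1 was detected in 38.0 to 54.3% of Drd1 neurons and 1.77 to 5.71% of Drd2 neurons, and Pdyn, which encodes prodynorphin, in 8.65 to 17.7% and 0 to 1.61%. Isl1, a transcription factor of direct-pathway development, was detected in 11.2 to 22.05% of Drd1 neurons and in 0 to 1.93% of Drd2 neurons. Penk, which encodes proenkephalin, had the opposite pattern, with 6.59 to 15.8% of Drd1 neurons and 55.1 to 73.3% of Drd2 neurons. Oligodendrocyte nuclei, which should lack these genes, gave a background of 0.654 to 2.17% for Tac1, 0.081 to 0.758% for Pdyn, 0 to 1.08% for Isl1 and 1.44 to 3.35% for Penk. Their median depth per library was 1628 to 2513 UMIs, against 8211.5 to 11211 in Drd1 and 7373.5 to 10224.5 in Drd2 neurons, so the background was read at a lower depth. At least 1 of Tac1, Pdyn and Isl1 was detected in 855 Drd1 neurons (59.9%), and 80 of these also held Penk, 5.61% of all members.

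**Figure D1:**
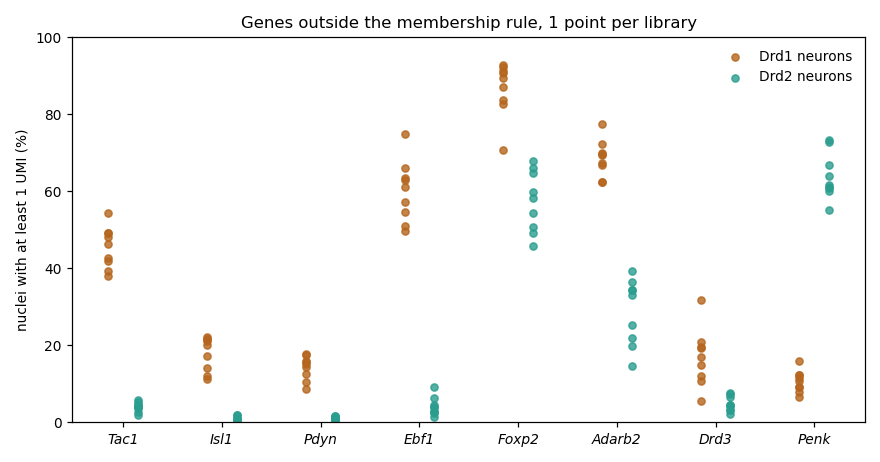
Share of nuclei with at least 1 UMI (y axis, percent) of 8 genes that were not part of the rule (x axis), with 1 point per library for Drd1 neurons and for Drd2 neurons. Tac1, Isl1, Pdyn, Ebf1, Foxp2 and Adarb2 lie higher in Drd1 neurons with no overlap, Penk lies higher in Drd2 neurons, and the ranges of Drd3 overlap (5.62 to 31.7% and 2 to 7.52%).

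Genes outside the rule were compared when their mean was at least 10 UMIs per library in Drd1 or in Drd2 neurons. A gene high in 1 kind could thus enter through that kind alone. Of the 10589 genes compared, 71 were higher in Drd1 than in Drd2 neurons in 9 of 9 libraries. Their mean difference was more than 1 on the log2(CPM + 1) scale, and 36 genes were lower by as much. These differences follow from the rule that split the nuclei and carry no test. Ebf1, a transcription factor of striatonigral differentiation, led the list at 301 CPM in Drd1 and 11.0 CPM in Drd2 neurons, a difference of 4.87 ± 0.88 (SD, n = 9). Tac1 had 79.5 and 5.57 CPM, a difference of 3.63. Isl1 differed by 3.64, Pdyn by 3.15, the growth factor gene Mdk by 3.39 and the zinc finger gene Zfp521 by 2.81. Lingo2, a neuronal leucine-rich repeat protein, stood at 1803 and 389 CPM, a difference of 2.29. The potassium channel gene Kcnk13 was higher by 1.78 and the dopamine D3 receptor gene Drd3 by 1.69. Erbb4, a neuregulin receptor, was higher by 1.79 and was detected in 63.5 to 85.3% of Drd1 neurons, 30.3 to 72.0% of Drd2 neurons and, at lower depth, 83.6 to 94.4% of oligodendrocyte nuclei.

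Among the 36 genes that were lower in Drd1 neurons, Penk had 15.9 CPM against 192 in Drd2 neurons, a difference of -3.60. Grik3, a kainate receptor subunit, had 51.3 and 351 CPM. Gpr6, an orphan receptor of indirect-pathway neurons, differed by -3.01, Oprd1, the delta opioid receptor, by -2.49, Sp9, a transcription factor needed for indirect-pathway neurons, by -2.33, and Nt5e, which makes extracellular adenosine from AMP, by -2.53. The muscarinic receptor gene Chrm3 differed by -1.44 and the adenosine kinase gene Adk by -1.86.

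Some of the differing genes lie beside the receptor genes that define the split. Ankk1 (-2.39) and Ttc12 (-2.05) start or end 7017 and 28786 bases from Drd2 on chromosome 9, and Upb1 (-4.08) and Gucd1 (-1.32) lie 66331 and 16327 bases from Adora2a on chromosome 10. On chromosome 13, Sfxn1 (1.15) and the long non-coding RNA gene Gm48550 (2.73) lie 16164 and 74517 bases from Drd1. Upb1 lies on the same strand as Adora2a, whereas Ankk1, Ttc12, Gucd1, Sfxn1 and Gm48550 lie on the strand opposite to their receptor gene. Whether transcripts of the receptor genes were assigned to these neighbours was not tested.

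Drd1 neurons were also split by Tshz1. Tshz1, a zinc finger gene of striosomes and of D1 neurons outside the matrix, was detected in 535 of them (37.5%). Per library the share was 39.3, 42.1 and 44.0% in young mice, 52.8, 22.1 and 27.2% in aged AAV-EGFP mice and 42.3, 46.7 and 36.2% in mice given AAV-B3GNT3. Aged AAV-EGFP thus held both the highest and the lowest libraries. Tshz1 was also detected in 16.4 to 37.3% of Drd2 neurons and in 7.96 to 17.3% of oligodendrocyte nuclei, the latter at the lower depth given above, and aged AAV-EGFP replicate 2 was the lowest library in all 3 kinds of nuclei. With every nucleus thinned to 2000 UMIs, which left out 746 to 2867 shallower nuclei per library, the share was 6.25 to 25.8% in Drd1 neurons, 4.10 to 11.4% in Drd2 neurons and 7.89 to 13.8% in oligodendrocyte nuclei. At this matched depth it was higher in Drd1 than in Drd2 neurons in 9 of 9 libraries and higher than in oligodendrocyte nuclei in 6 of 9, with aged AAV-EGFP replicate 1 (25.8 against 12.6%) and aged AAV-B3GNT3 replicate 2 (22.7 against 13.5%) farthest above. It was lower in young AAV-EGFP replicate 3 (12 against 13.02%), aged AAV-EGFP replicate 2 (6.25 against 7.89%) and aged AAV-EGFP replicate 3 (9.06 against 9.15%). The part of free RNA in the split was not tested.

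Of 3443 genes with a mean of at least 50 CPM in either part of the split, 24 were higher in Tshz1-positive than in Tshz1-negative Drd1 neurons in 9 of 9 libraries by more than 1 on the log2 scale, and 0 were lower by as much. Genes high in 1 part could enter through that part alone, and with the limit set on the mean of both parts the counts were 20 and 0 of 3313. This split uses a gene of the same nuclei, so it is also a description without a test. Ankfn1 differed by 4.03, Vwc2l by 2.38, Sema5b, a guidance cue, by 1.99 and Trpm3, a cation channel, by 1.82 (933 against 287 CPM). Foxp2 stood at 1196 against 629 CPM, Tac1 differed by 0.53 in 9 of 9 libraries and Drd3 by 1.15 in 8 of 9, whereas Ebf1 was lower in all libraries, by -0.82. Detection in single neurons showed the same order for Ebf1, with 30.4 to 54.9% of Tshz1-positive and 57.1 to 84.3% of Tshz1-negative neurons. Tac1 was detected in a larger share of Tshz1-positive neurons in 6 of 9 libraries (37.1 to 66.7% against 36.4 to 50%), Foxp2 in 7 of 9 and Drd3 in 9 of 9. Adarb2, which also marks some cortical interneurons, was detected in 62.5 to 77.5% of Drd1 neurons, 14.5 to 39.2% of Drd2 neurons and 13.1 to 36.9% of oligodendrocyte nuclei.

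The share of Drd1 neurons was lower in every AAV-B3GNT3 mouse than in every aged AAV-EGFP mouse, and the young mice overlapped both groups. They made 1.66 ± 0.964% (SD, n = 3) of kept nuclei in young mice, 2.48 ± 0.547% in aged AAV-EGFP mice and 1.53 ± 0.283% in AAV-B3GNT3 mice (two-sided exact permutation of groups, F statistic, 280 partitions, p = 0.261). Young AAV-EGFP replicate 2, at 2.77%, lay inside the aged AAV-EGFP range, while the other two young libraries lay below it. Without that library the exact permutation p was 0.0143. Pairwise, 3 libraries against 3 cannot give an exact permutation p below 0.1, and the values were 0.3 for ageing and 0.1 for AAV-B3GNT3, where the ranges did not overlap. Relative to GABAergic nuclei the shares were 6.98, 11.4 and 7.68% (exact permutation p = 0.161), and after thinning to 2000 UMIs they were 0.276, 0.598 and 0.310% of nuclei (exact permutation p = 0.0929).

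Drd1 neurons made 42.8 ± 10.3, 45.0 ± 0.982 and 39.9 ± 4.72% of detected Drd1 and Drd2 neurons together (SD, n = 3 each, in the same order of groups, exact permutation p = 0.654). Young AAV-EGFP replicate 1 was lowest at 31.6%, and without it the exact permutation p was 0.0464. After thinning to 2000 UMIs the group means were 21.1, 26.1 and 19.7% (exact permutation p = 0.339). The level of this share thus depended on depth and is not the true balance of the 2 kinds. The 2 share measures and the median UMIs per Drd1 neuron formed a family of 3, in which no unadjusted p was under 0.05. Median UMIs per Drd1 neuron were 10057 ± 608, 10086 ± 544 and 10041 ± 1605 (SD, n = 3 each, exact permutation p = 0.996), so depth per neuron was alike in mean. How much striatal tissue each dissection held was not measured, and the shares cannot be told apart from it.

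**Figure D2:**
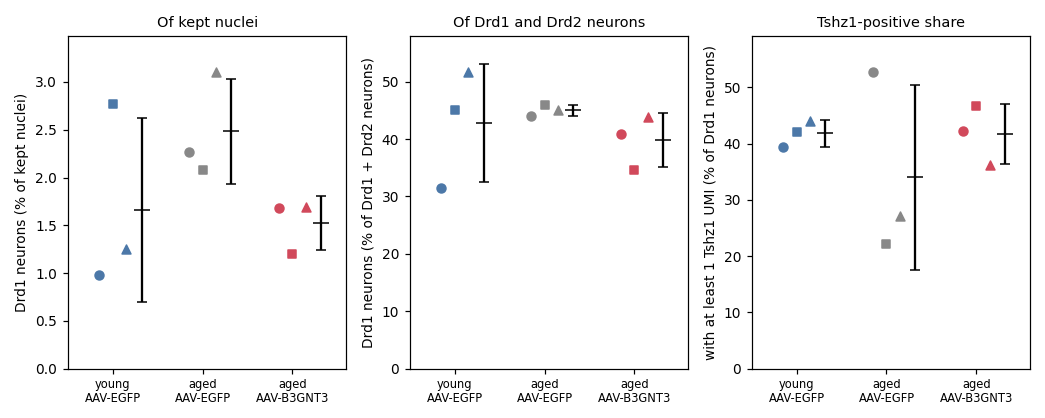
Drd1 neurons as a percentage of kept nuclei (left), as a percentage of Drd1 and Drd2 neurons together (middle), and the percentage of Drd1 neurons with at least 1 Tshz1 UMI (right). Points are mice, with circle, square and triangle for replicates 1, 2 and 3, and bars give mean ± SD; the aged AAV-EGFP mice span the widest range of Tshz1-positive neurons, from 22.1 to 52.8%.

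Few genes of Drd1 neurons differed with age in the test across all genes. UMIs were summed over the Drd1 neurons of each mouse and fitted with the quasi-likelihood test of edgeR, and a gene was called when its Benjamini-Hochberg adjusted p was under 0.05. Of 10561 genes, 12 were called (0.114%), 2 higher (0.0189%) and 10 lower (0.0947%) in aged AAV-EGFP mice, while 1635 (15.5%) had an unadjusted p under 0.05. The count depended on single libraries. It was 463, with all 12 genes among them, when aged AAV-EGFP replicate 1 was left out. Leaving out young AAV-EGFP replicate 3 gave 0 genes (edgeR; 1308 with an unadjusted p under 0.05) and young AAV-EGFP replicate 1 gave 5, while aged AAV-EGFP replicates 2 and 3 gave 3 and 2. Aged AAV-B3GNT3 replicates 1 and 2 gave 4 and 22. They are in neither group compared and enter through the shared filter, scaling and spread. DESeq2 called 75 genes, and 32 without its own filter on low means, each with the same 12 among them.

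The genes that fell with age included a neurotrophin receptor and a survival gene. Bcl2 (chr1:106538178-106714274), which blocks apoptosis, had 146, 155 and 161 CPM in young mice, 64.4, 54.8 and 42.3 in aged AAV-EGFP mice and 68.2, 84.3 and 57.1 in AAV-B3GNT3 mice, each in the order of replicates 1 to 3. Every aged mouse lay below every young mouse, and Bcl2 fell by 1.53 ± 0.181 (SE) on the log2 scale (edgeR adjusted p = 0.0049). Without young AAV-EGFP replicate 3 its edgeR adjusted p was 0.0538, the only alternative of 23 in which it was not called. Other genes were less steady. Over the same 23 alternatives Ntrk2 lost its call in 3, Etv5 in 8 and every other gene called with age in 12 to 17.

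Ntrk2 (chr13:58806569-59133970), which encodes the BDNF receptor TrkB, had 1041, 1061 and 1087 CPM in young mice, 525, 532 and 441 in aged AAV-EGFP mice and 588, 772 and 605 in AAV-B3GNT3 mice. The young libraries lay close together and above all others, and Ntrk2 fell by 1.09 ± 0.145 (SE) with age (edgeR adjusted p = 0.00931). Etv5 (chr16:22381309-22439719), a transcription factor of growth factor signalling, had 88.5, 71.0 and 105 CPM, then 35.2, 22.6 and 24.9, then 32.9, 67.1 and 46.5 in the same order. It fell by 1.66 ± 0.248 (SE; edgeR adjusted p = 0.025), and the aged AAV-B3GNT3 values overlapped those of aged AAV-EGFP.

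The other 7 genes that fell did so by 0.77 to 1.13 on the log2 scale. Rph3a (chr5:120940499-121010092), a Rab-binding protein of synaptic vesicles, had 102, 71.7 and 91.5 CPM in young and 50.1, 33.8 and 36.2 CPM in aged AAV-EGFP mice, a fall by 1.13 ± 0.196 (SE; edgeR adjusted p = 0.0499). Dscaml1, an adhesion molecule, had 332, 273 and 233 against 161, 151 and 96.0 CPM and fell by 1.05. Zdhhc14, a palmitoyltransferase reported to act on potassium channels, had 599, 751 and 887 against 404, 409 and 350.0 CPM and fell by 0.95. Neither of these pairs of groups overlapped. Sgsm1 fell by 1.04, the RNA phosphatase gene Dusp11 by 1.004, Crocc, a component of the ciliary rootlet, by 0.94, and Ldlrad4, a brake on TGF-beta signalling, by 0.77, all with an edgeR adjusted p of 0.0499, just inside the threshold.

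The 2 genes that rose with age were Sema3a and Gm9866. Sema3a (chr5:13125414-13602565), a secreted axon guidance cue, had 119, 132 and 100.8 CPM in young mice, 229.7, 290.0 and 226 in aged AAV-EGFP mice and 111, 141 and 170.2 in AAV-B3GNT3 mice. It rose by 1.07 ± 0.176 (SE) with age (edgeR adjusted p = 0.0461). Its AAV-B3GNT3 libraries all lay below the aged AAV-EGFP libraries, but the difference of -0.81 ± 0.174 was not called (edgeR adjusted p = 0.142). Gm9866 (chr12:27050950-27160633), a long intergenic non-coding RNA gene, had 20.5, 24.8 and 20.8 CPM, then 57.9, 44.0 and 54.6, then 55.1, 62.3 and 54.8, so that both aged groups lay above the young one. It rose by 1.21 ± 0.188 (SE; edgeR adjusted p = 0.0312). Just outside the threshold, at an edgeR adjusted p of 0.0505 each, were Krt12 (1.62), Gm46102 (1.08), Nt5dc1 (1.01) and Grm4 (-0.96).

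**Figure D3:**
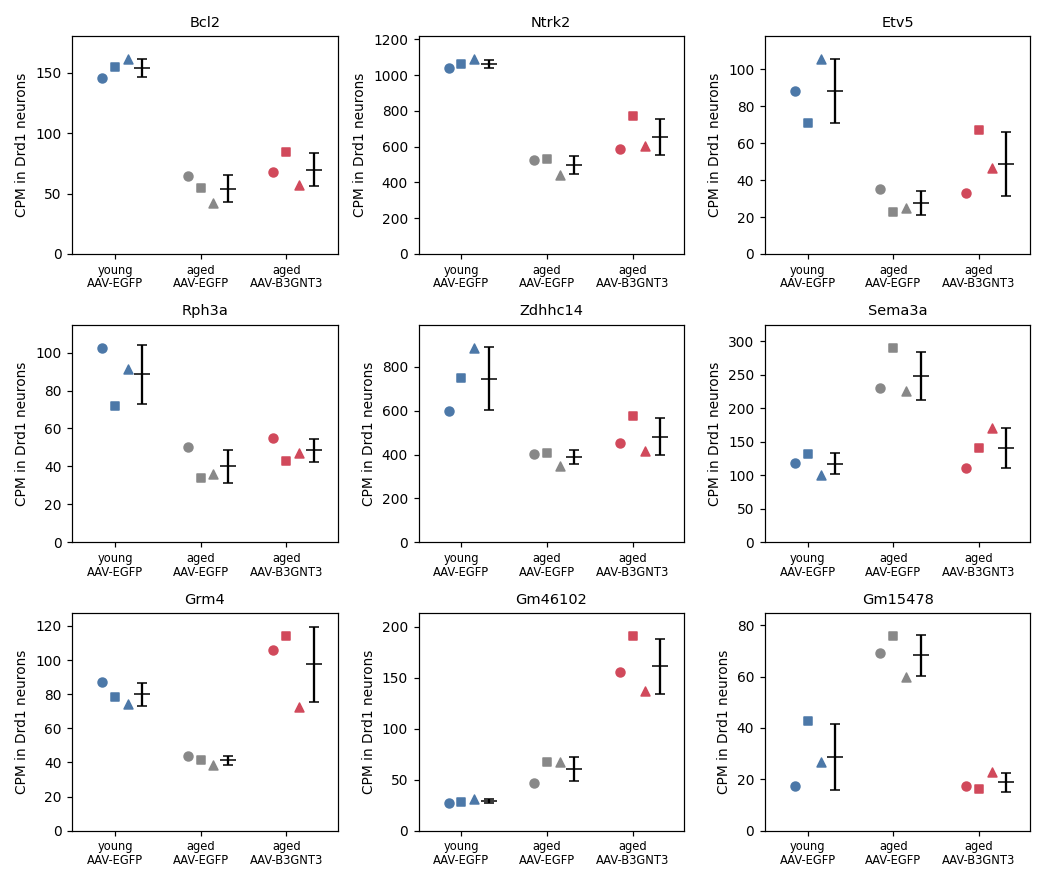
CPM of 9 genes in the Drd1 neurons of each mouse (linear axes from 0), with circle, square and triangle for replicates 1, 2 and 3 and bars for mean ± SD. Bcl2, Ntrk2, Etv5, Rph3a and Zdhhc14 lie lower in aged than in young AAV-EGFP mice, Sema3a lies higher, and Grm4, Gm46102 and Gm15478 are the 3 genes called for AAV-B3GNT3.

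The same genes moved by like amounts in Drd2 neurons, the neighbouring kind of spiny neuron, which were not used to name them. In Drd2 neurons of the same mice, 152 of 10770 genes were called with age (1.41%). Bcl2 fell by 1.495 ± 0.256 (edgeR adjusted p = 0.0232), Ntrk2 by 1.07 ± 0.148 (edgeR adjusted p = 0.00727) and Etv5 by 1.51 ± 0.319 (edgeR adjusted p = 0.0395). Sema3a rose by 0.92 ± 0.197 (edgeR adjusted p = 0.0395). Gm9866, at 0.74 (edgeR adjusted p = 0.0927), Sgsm1, at -0.75 (edgeR adjusted p = 0.0759), and Ldlrad4, at -0.72 (edgeR adjusted p = 0.0603), were not called there. Both kinds of neuron came from the same 9 libraries, so they are not independent. A fit with both kinds and a term for the mouse called 0 of 11783 genes (0%) for a difference in the ageing change between Drd1 and Drd2 neurons (edgeR; 430 at an unadjusted p under 0.05). That count was 1 when aged AAV-EGFP replicate 1 or aged AAV-B3GNT3 replicate 1 was left out. Among the 12 genes called with age in Drd1 neurons the differences ran from -0.39 ± 0.156 for Dscaml1 to 0.44 ± 0.267 for Gm9866. Of the genes just outside that threshold, Nt5dc1 differed by 0.52 ± 0.268 and Grm4 by -0.48 ± 0.199.

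**Figure D4:**
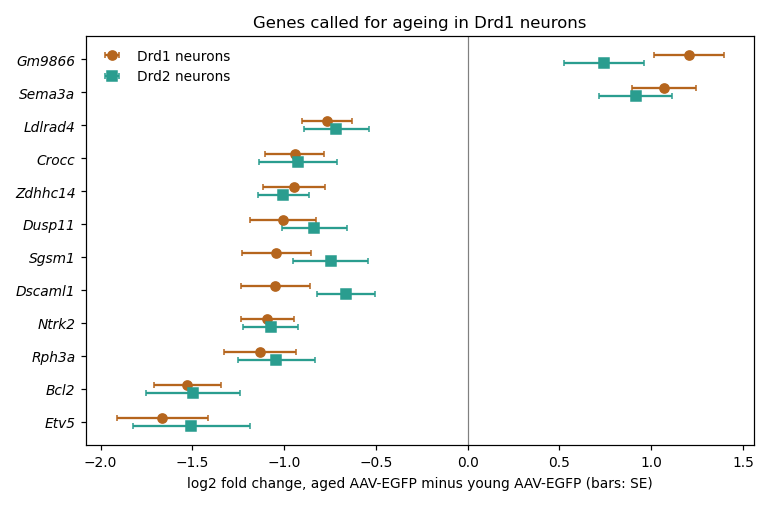
Log2 fold change with age (x axis, aged minus young AAV-EGFP, bars ± SE) of the 12 genes called in Drd1 neurons (y axis), in Drd1 neurons (circles) and Drd2 neurons (squares). All 12 have the same sign in both kinds, with Dscaml1 (-1.05 and -0.66) and Gm9866 (1.21 and 0.74) farthest apart.

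Against other GABAergic neurons, Bcl2 was the gene with a larger fall in Drd1 neurons. The comparison used 2942 GABAergic nuclei with interneuron markers, 193 to 490 per library. It was chosen after the values were seen because the group planned first held only 5 to 66 nuclei per library. These nuclei had at least 3 UMIs of Gad1 and Gad2 and none of Rgs9, Drd1, Drd2 or Adora2a. Lhx6, Adarb2, Sst, Pvalb and Vip together had more than 1 UMI. Striatal genes apart from Rgs9 were not excluded, and Adarb2 was detected in 62.5 to 77.5% of Drd1 neurons, so spiny neurons may be among them. Of 13226 genes, 1 was called for ageing (0.00756%), Bcl2, with a difference of -1.35 ± 0.166 (SE; edgeR adjusted p = 0.00864), and 0 for AAV-B3GNT3 (0%; edgeR, 450 at an unadjusted p under 0.05). The group planned first gave 3 genes for ageing (0.0282%) and 5 for AAV-B3GNT3 (0.047%) of 10644, and none of these was called with the larger group.

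With AAV-B3GNT3, 3 of 10561 genes were called in Drd1 neurons (0.0284%), 2 higher (0.0189%) and 1 lower (0.00947%) than in aged AAV-EGFP mice, and 1148 (10.9%) had an unadjusted p under 0.05. The count fell to 0 when any of aged AAV-EGFP replicate 2, aged AAV-B3GNT3 replicate 1 or aged AAV-B3GNT3 replicate 2 was left out (edgeR; 719, 770 and 739 genes then had an unadjusted p under 0.05). It rose to 41 when aged AAV-B3GNT3 replicate 3 was left out and to 11 for aged AAV-EGFP replicate 1, and was 5 for young AAV-EGFP replicate 1, 2 for aged AAV-EGFP replicate 3 and 1 for young AAV-EGFP replicate 3. DESeq2 with its own filter on low means gave an adjusted p to 1066 genes, which left out these 3, and called 21; without that filter, a setting added after seeing the data, it called 19 with the 3 among them.

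Grm4 (chr17:27422387-27521403), a presynaptic group III metabotropic glutamate receptor that lowers cyclic AMP, had 106, 114 and 72.4 CPM in aged AAV-B3GNT3 and 43.6, 41.3 and 38.6 in aged AAV-EGFP mice, against 87.4, 78.6 and 74.1 in young mice. The aged AAV-B3GNT3 values spanned the young ones and lay above all aged AAV-EGFP values. Grm4 rose by 1.23 ± 0.182 (SE; edgeR adjusted p = 0.0219) and was 0.87 ± 0.253 higher in Drd2 neurons, where it was not called (edgeR adjusted p = 0.154).

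The remaining called genes are non-coding. Over 22 alternative settings Grm4 lost its call in 12, Gm46102 in 6 and Gm15478 in 7. Gm46102 (chr9:9355737-9583307), a long intergenic non-coding RNA gene, had 155, 191 and 137 CPM with AAV-B3GNT3, 46.5, 67.1 and 67.3 in aged AAV-EGFP and 27, 28.4 and 31.3 in young mice. The 3 groups did not overlap, and Gm46102 rose by 1.40 ± 0.176 (SE; edgeR adjusted p = 0.00983) with the enzyme. Gm15478 (chr5:67642401-67646776), annotated as antisense within Atp8a1, had 17.3, 16.3 and 23 CPM with AAV-B3GNT3, 69.2, 75.7 and 59.8 in aged AAV-EGFP and 17.3, 42.6 and 26.6 in young mice. It fell by 1.82 ± 0.266 (SE; edgeR adjusted p = 0.0219), and its reads cannot be told apart from those of Atp8a1 if strand was not used in counting. In Drd2 neurons, where 26 of 10770 genes were called (0.241%), Gm15478 fell by 1.78 ± 0.305 (edgeR adjusted p = 0.0368), and Gm46102 was 1.002 ± 0.227 higher and not called (edgeR adjusted p = 0.0786).

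Genes next in rank did not pass. Cst3, which encodes the protease inhibitor cystatin C, had 14.8, 17.2 and 9.42 CPM with AAV-B3GNT3 and 35.8, 39.2 and 40.3 in aged AAV-EGFP mice (-1.52 ± 0.255, edgeR adjusted p = 0.0574). Vcan, an extracellular matrix proteoglycan and one of the oligodendrocyte precursor markers, had 14.8, 10.5 and 14.7 against 37.6, 36.5 and 29.4 CPM (-1.33 ± 0.227, edgeR adjusted p = 0.0574). Neither pair of groups overlapped. Gm15577, antisense within Negr1, was at -1.79 (edgeR adjusted p = 0.0574), and Ubb, a polyubiquitin gene whose reads may be shared with its copies, at -1.28 (edgeR adjusted p = 0.0793). On the higher side, Gm47214 (1.90), Ccnd2, a cyclin (1.26), and Pde4a, a cyclic AMP phosphodiesterase (0.83), each had an edgeR adjusted p of 0.142.

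Egfem1 was the 1 gene of 11783 (0.00849%) whose difference with AAV-B3GNT3 was itself different between Drd1 and Drd2 neurons. In Drd1 neurons it had 491, 514 and 519 CPM with AAV-B3GNT3 and 844, 641 and 620.2 in aged AAV-EGFP mice, a difference of -0.47 ± 0.161, whereas in Drd2 neurons the difference was 0.53 ± 0.173. Neither was called on its own (edgeR adjusted p = 0.322 and 0.206), and the difference between them was -1.02 ± 0.145 (SE; edgeR adjusted p = 0.0103). The call was lost when aged AAV-EGFP replicate 2 or 3 or aged AAV-B3GNT3 replicate 1 or 2 was left out (0 genes in each, edgeR, 381 to 400 at an unadjusted p under 0.05), and in neurons with no Tshz1 UMI (0 genes, 391).

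No tested gene of dopamine and cyclic AMP signalling was called in either comparison. Drd1, Rgs9, Pde10a and Ppp1r1b, which also act in this signalling, were genes of the rule and were not tested. Of 29 genes of dopamine and cyclic AMP signalling tested, 0 were called (edgeR; 5 at an unadjusted p under 0.05 for ageing and 2 for AAV-B3GNT3), with median log2 fold changes of -0.09 and -0.01 beside 0.012 and 0.007 over all genes. Rgs2, which ends G protein signals, had 68.0, 55.3 and 42.8 CPM in young, 31.0, 14.5 and 36.5 in aged AAV-EGFP and 60.0, 55.6 and 41.2 in aged AAV-B3GNT3 mice, a difference of -0.99 with age (edgeR adjusted p = 0.123) and 0.89 with AAV-B3GNT3 (edgeR adjusted p = 0.289). Gng7, the G protein gamma subunit that pairs with Golf in the striatum, had 356, 366 and 321, then 262, 272 and 238, then 364, 372 and 219.7 CPM. Of these 29 genes, 1 was higher and 6 were lower in every aged than in every young AAV-EGFP mouse, 24.1% without overlap beside 20.2% of all genes. With AAV-B3GNT3, 2 were higher and 1 lower without overlap, 10.3% beside 16.3%. For this list and those below, the share of all genes at an unadjusted p under 0.05 was 15.5% for ageing and 10.9% for AAV-B3GNT3 (edgeR).

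Of 19 modulatory receptor genes tested, Grm4 alone was called, with AAV-B3GNT3, where 0.0284% of all genes were. In each comparison 26.3% of them did not overlap, beside 20.2% of all genes for ageing and 16.3% for AAV-B3GNT3. Oprk1, the kappa opioid receptor on which dynorphin acts, had 18.3, 21.5 and 25.5 CPM in young and 37.6, 64.4 and 43.7 in aged AAV-EGFP mice (1.16 ± 0.264, edgeR adjusted p = 0.0738). Grm5, which encodes the mGluR5 receptor, had 3172, 4125 and 3273 CPM in aged AAV-EGFP and 2455, 2179.5 and 2539 with AAV-B3GNT3 (-0.56 ± 0.163, edgeR adjusted p = 0.289). The cannabinoid receptor gene Cnr1 had 122, 362 and 246 CPM in aged AAV-EGFP and 200.5, 137 and 127 with AAV-B3GNT3, which overlap.

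No identity gene outside the rule was called. None of 13 spiny neuron genes or 7 direct-pathway genes tested was called (edgeR; 1 and 1 at an unadjusted p under 0.05 for ageing, 3 and 1 for AAV-B3GNT3). In each comparison 15.4% of the former and 14.3% of the latter did not overlap, beside 20.2% of all genes for ageing and 16.3% for AAV-B3GNT3. Ebf1 had 288, 279.98 and 235 CPM in young, 317, 376 and 467 in aged AAV-EGFP and 265, 194 and 297 in aged AAV-B3GNT3 mice, a difference of 0.53 with age (edgeR adjusted p = 0.182) and -0.62 with AAV-B3GNT3 (edgeR adjusted p = 0.289). Foxp2 had 743, 855 and 903, then 1098, 1040.2 and 914, then 686, 730.0 and 766 CPM. For both genes the aged AAV-EGFP libraries lay above all others, and neither passed. Meis2 lay lower without overlap with AAV-B3GNT3 (-0.34, edgeR adjusted p = 0.411). Of 2 indirect-pathway genes tested, Penk was higher without overlap with age (0.80, edgeR adjusted p = 0.266). The other was lower with age, by -1.24, with overlap of the groups, and was not called. The 7 striosome genes gave medians of -0.22 and -0.14 and the 4 matrix genes -0.22 and 0.17 on the log2 scale, with 0 called (edgeR; among striosome genes 0 and 1, and among matrix genes 0 and 0, at an unadjusted p under 0.05).

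No gene of the channel, ionotropic receptor or scaffold lists was called. Among 30 potassium channel genes, 20 calcium and sodium channel genes, 16 ionotropic glutamate receptor genes, 12 GABA-A receptor genes and 19 postsynaptic scaffold genes, 0 were called in either comparison (edgeR; 5, 1, 2, 0 and 4 at an unadjusted p under 0.05 for ageing and 5, 1, 2, 2 and 9 for AAV-B3GNT3). Over all genes, 15.5 and 10.9% had an unadjusted p under 0.05. With AAV-B3GNT3, 30% of the potassium channel, 15% of the calcium and sodium channel, 18.75% of the glutamate receptor, 0% of the GABA-A receptor and 26.3% of the scaffold genes did not overlap, beside 16.3% of all genes. With age these shares were 13.3, 0, 0, 0 and 15.8%, beside 20.2%. Kcna1, a delayed rectifier subunit, had 106, 92.9 and 87.8 CPM with AAV-B3GNT3 and 59.7, 66.0 and 57.4 in aged AAV-EGFP mice (0.65 ± 0.146, edgeR adjusted p = 0.189). Kcnd2, an A-type channel subunit, had 4342, 3728 and 4677 against 6122, 8021 and 5975 CPM (-0.66 ± 0.180, edgeR adjusted p = 0.274). Shank3, a scaffold of excitatory synapses, had 162, 124 and 127 against 85.9, 102 and 110.3 CPM (0.46 ± 0.156, edgeR adjusted p = 0.318).

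Immediate-early genes, which report recent activity, had a median log2 fold change of -0.96 with age over the 18 tested and 0.53 with AAV-B3GNT3, and 0 were called (edgeR; 9 and 5 at an unadjusted p under 0.05). With age, 8 of the 18 were lower and 1 higher without overlap, 50% beside 20.2% of all genes. With AAV-B3GNT3, 3 were higher and 2 lower without overlap, 27.8% beside 16.3%. The 2 lower ones, against the sign of the median, were Ier5 (-1.32, edgeR adjusted p = 0.3397) and Jund (-0.75, edgeR adjusted p = 0.424). Nr4a1, an orphan nuclear receptor, had 86.3, 48.8 and 56.7 CPM in young, 40.6, 10.7 and 28.0 in aged AAV-EGFP and 42.7, 26.8 and 35.3 in aged AAV-B3GNT3 mice (-1.24 ± 0.34 with age, edgeR adjusted p = 0.115). Nr4a3 had 63.7, 24.4 and 11.6, then 7.76, 0.537 and 7.51, then 23, 41.2 and 14.1 CPM, a difference of -2.55 with age (edgeR adjusted p = 0.0954) and 2.19 with AAV-B3GNT3 (edgeR adjusted p = 0.289). Aged AAV-EGFP replicate 2 was the lowest library for both.

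Of 26 heat shock and chaperone genes, 0 were called (edgeR; 7 and 3 at an unadjusted p under 0.05), with medians of -0.31 with age and -0.05 with AAV-B3GNT3. Of this list 23.1 and 19.2% did not overlap, beside 20.2 and 16.3% of all genes. Hsph1, a cochaperone, had 79.8, 73.5 and 84.5 CPM in young, 31.6, 33.3 and 51.6 in aged AAV-EGFP and 74.0, 76.6 and 62.4 in aged AAV-B3GNT3 mice. Its difference was -0.99 ± 0.195 with age (edgeR adjusted p = 0.0525) and 0.84 ± 0.196 with AAV-B3GNT3 (edgeR adjusted p = 0.192). Hsp90b1, a chaperone of the endoplasmic reticulum, had 50.7, 79.7 and 104 against 45.3, 25.2 and 35.9 CPM in young and aged AAV-EGFP mice (-1.14 ± 0.242, edgeR adjusted p = 0.0573).

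Genes of ribosomes and of oxidative phosphorylation lay on 1 side as groups, although none was called (edgeR). Of 69 cytosolic ribosomal protein genes, 64 were above 0 with age (median 0.42, 14 at an unadjusted p under 0.05) and 62 below 0 with AAV-B3GNT3 (median -0.52, 15 at an unadjusted p under 0.05). Of 66 oxidative phosphorylation genes, 58 were above 0 with age (median 0.27) and 56 below 0 with AAV-B3GNT3 (median -0.36), with 10 and 12 at an unadjusted p under 0.05. These lists were without overlap in 27.5 and 18.2% with age, beside 20.2% of all genes, and in 28.99 and 25.8% with AAV-B3GNT3, beside 16.3%. Cox5b had 10.1, 15.6 and 14.7 CPM in aged AAV-EGFP and 4.11, 4.79 and 4.71 with AAV-B3GNT3 (-1.56 ± 0.383, edgeR adjusted p = 0.241). Counts of ribosomal protein genes may include reads of their many processed copies, and the opposite signs of the 2 comparisons share the aged AAV-EGFP libraries.

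Of 6 neuron genes that the study named from these samples, which makes them no independent evidence, 0 were called in Drd1 neurons (edgeR; 2 and 4 at an unadjusted p under 0.05), and all 6 were above 0 with AAV-B3GNT3 (median 0.53). Groups did not overlap for 33.3% of them with age and 83.3% with AAV-B3GNT3, beside 20.2 and 16.3% of all genes. Ccnd2 had 64.7, 59.0 and 46.3 CPM in young, 23.9, 37.6 and 27.3 in aged AAV-EGFP and 100.2, 65.1 and 48.9 in aged AAV-B3GNT3 mice. Foxo3, a stress-responsive transcription factor, had 164, 155 and 156 CPM with AAV-B3GNT3 against 118, 90.2 and 134 (0.47 ± 0.157, edgeR adjusted p = 0.318).

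**Figure D5:**
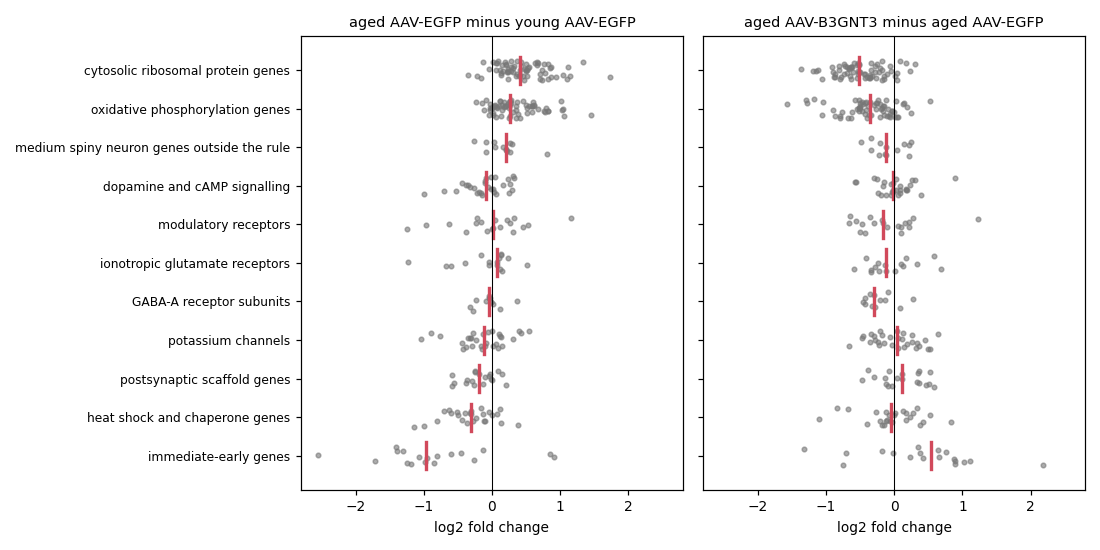
Log2 fold change (x axis) of each tested gene of 11 lists (rows, with 1 point per gene and a red bar for the median) in Drd1 neurons, for aged minus young AAV-EGFP (left) and aged AAV-B3GNT3 minus aged AAV-EGFP (right). The medians of ribosomal protein genes (0.42 and -0.52) and immediate-early genes (-0.96 and 0.53) lie farthest from 0 among the 11 lists drawn, and the 2 panels share the aged AAV-EGFP libraries.

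Levels of markers of other cells varied between libraries. The summed level of 12 interneuron markers in Drd1 neurons was 660 to 1429 CPM in young mice, 591 to 987 in aged AAV-EGFP mice and 505 to 554 in AAV-B3GNT3 mice, most of it Adarb2, with Sncg at 0 in every library and Slc5a7 and Pthlh at 0 in several. Adarb2 itself had 1344, 781 and 602, then 840.0, 1001 and 527, then 482, 451 and 401 CPM (-0.83 ± 0.262 with AAV-B3GNT3, edgeR adjusted p = 0.289). Gene by gene, 5 of the 7 interneuron markers tested were above 0 with age (median 0.70) and 6 of 7 below 0 with AAV-B3GNT3 (median -0.66). The sum of the oligodendrocyte precursor markers was 916 to 1082 CPM in young mice, 833 to 1322 in aged AAV-EGFP mice and 844 to 1022 in AAV-B3GNT3 mice, with Cspg4 at 0 in 1 library, and all 4 of those tested, Vcan among them, were below 0 with AAV-B3GNT3 (median -0.67). Excitatory neuron markers summed to 202 to 357 CPM, and most of the sum of the 8 astrocyte markers was Slc4a4, at 806 to 1806 CPM. No tested gene of the neuron, glial or interneuron marker lists was called (edgeR; 1, 1, 1, 0, 0, 1 and 1 at an unadjusted p under 0.05 for ageing in neuron, oligodendrocyte, astrocyte, microglia, precursor, excitatory and interneuron lists, and 1, 0, 0, 1, 1, 2 and 1 for AAV-B3GNT3). In the same order, 7, 8, 5, 4, 4, 6 and 7 genes of these lists were tested. Over all genes 15.5% had an unadjusted p under 0.05 with age and 10.9% with AAV-B3GNT3 (edgeR). The part of other cells in the results was not tested.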

How the data were processed

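UMI counts per gene and nucleus were measured in 9 libraries, each from 1 mouse (10x Genomics 3′ chemistry on sorted Hoechst-positive singlets). The authors aligned reads to mm10 (GRCm38) with Cell Ranger and deposited raw counts of the barcodes that passed its filter, before the removal of free RNA and doublets that the study applied. Per the submitters' processing notes the version was 4.0.0, whereas the matrix headers name 7.2.0. Whether intronic reads were counted is not given in the sources used here, and it sets the level of long genes. The members, gene lists and tests were chosen with earlier results of these data known.

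Counts of Drd1 neurons were summed per mouse, since nuclei of 1 library are not replicates. The filter was that of filterByExpr with a minimum count of 10, the scaling TMM, and edgeR 4.0.16 (R 4.3.3) gave two-sided quasi-likelihood tests over all 9 samples in 1 model. The 11 genes of the membership rule stayed in the totals but were not tested. CPM values of the age and AAV-B3GNT3 comparisons use TMM-scaled totals, and those of Drd1 against Drd2 neurons and of the Tshz1 split use raw totals. SE values come from the F statistic. Differences between kinds of neuron were tested as an interaction with the mouse as a block. Shares were compared with exact permutation tests in Python 3.11.15 (numpy 2.4.6, scipy 1.17.1). Summed counts of 875583 to 2870488 per mouse set the precision, and percentages of nuclei cover few neurons in some libraries. The scripts were tested on simulated data. Other settings included DESeq2 1.42.0, given with the closing remarks.

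The genes named were the 10 largest rises and falls among called genes without overlap of groups and with a mean of at least 10 UMIs. Where fewer than 5 passed, those with the smallest p filled up to 5. Up to 4 genes per list with the smallest p served as examples, and other genes of the receptor and Tshz1 splits were picked after their values were seen. Values of 2 genes are not reported here. Positions are from GENCODE vM21 (GRCm38).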

Additional observations from a re-analysis of the deposited data

Results flagged for a closer look

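The results below are those in which a test of the difference between 2 kinds of neuron under the same contrast passed an edgeR adjusted p of 0.05. With 3 mice per group, single libraries were not tested as outliers. The change of Egfem1 with AAV-B3GNT3 was -1.02 on the log2 scale in Drd1 neurons relative to Drd2 neurons, with -0.47 in the former and 0.53 in the latter. The fall of Bcl2 with age was larger in Drd1 neurons than in GABAergic neurons with interneuron markers, by -1.35, a comparison group chosen after seeing the data, while Drd1 and Drd2 neurons differed by 0.03 ± 0.176.

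Against the other GABAergic group set first, with 5 to 66 nuclei and 28318 to 300357 UMIs per library, the ageing changes differed by -2.95 for Gm32647, -2.46 for Tmem132d and -5.35 for Igf1. The AAV-B3GNT3 changes differed by 5.88 for Gm32647, -3.86 for Sema3e, 4.199 for Cacna2d2, 2.69 for Fam19a1 and -3.81 for Sema3a. In Drd1 neurons themselves none of these genes was called in the comparison concerned. Igf1 was counted at 0 to 44.2 CPM there, with young AAV-EGFP replicate 3 at 0. In the larger group chosen later, Gm32647 differed by -1.30 with age and 0.62 with AAV-B3GNT3, and neither was called. The part of the small number of nuclei in these differences was not tested.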

How the results depend on the processing

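None of the 25 gene comparisons named changed sign in the settings tried. The genes were picked from these same data by size of change and p, so an unchanged sign was likely from the start. Of 564 fits under other settings, 358 stayed on their side of the threshold, 171 were no longer called and 35 became called. Only genes called as reported could lose a call, and only the others could become called, so these counts are not shares of the same fits. The numbers of called genes also moved. For ageing (12 as reported), 4 genes were called with RLE size factors, 75 with DESeq2 (31 higher, 44 lower), 485 with no filter on low counts (266 higher, 219 lower), 5 after removal of likely doublets, 2 after subtraction of free RNA, 33 with at least 3 striatal genes and 2 Drd1 UMIs, 7 with Slc17a7 at 0 and 2 Gad UMIs, 1 with no upper limit on genes, 2 with the mitochondrial share as a covariate, and 8 with only the 2 groups compared. For AAV-B3GNT3 (3 as reported), 21 were called with DESeq2, 224 with no filter on low counts (46 higher, 178 lower), 0 after subtraction of free RNA (edgeR; 644 at an unadjusted p under 0.05), 1 with at least 3 striatal genes and 2 Drd1 UMIs and 0 with no upper limit on genes (1110 at an unadjusted p under 0.05). Settings added after seeing the data gave, for ageing, 3 genes in neurons with no Tshz1 UMI, 6 with the Tshz1-positive share as a covariate and 32 with DESeq2 without its own filter, and for AAV-B3GNT3 3, 3 and 19. Leaving out 1 library at a time gave 0 to 463 genes for ageing and 0 to 41 for AAV-B3GNT3. The cause of these shifts was not tested.

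Same-numbered samples of different groups did not deviate together (9 correlations of deviations from -0.25 to 0.08, against -0.12 to 0.25 for 18 pairs of other numbers). With 3 mice per group this check cannot decide whether the numbers pair the mice, and shared handling by number was not tested. With the replicate number as a block, 3 genes were called for ageing and 4 for AAV-B3GNT3.

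For the difference between Drd1 and Drd2 neurons, no filter on low counts gave 27 genes for ageing and 29 for AAV-B3GNT3, neurons with no Tshz1 UMI gave 0 for AAV-B3GNT3, and leaving out 1 library gave 0 to 1 and 0 to 2. For the difference from the small GABAergic group, AAV-B3GNT3 gave 3 genes with RLE size factors and 9 after doublet removal, leaving out 1 library gave 0 to 17 for ageing and 4 to 13 for AAV-B3GNT3, and the larger group gave 1 and 0. Leaving out 1 library gave exact permutation p values of 0.0143 to 0.55 for the share of kept nuclei, 0.0464 to 0.857 for the share among Drd1 and Drd2 neurons and 0.257 to 0.996 for median UMIs. Depth limits these results through the 75 to 273 neurons per library and the single Drd1 molecule in most of them.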

Other observations

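Of the 7912 nuclei with striatal genes, 4474 held neither receptor transcript and enter no comparison. Drd1 was counted once in 58.7% of the members, so a nucleus with the receptor but no captured molecule of it falls among these 4474 at this depth. The 99 nuclei with transcripts of both receptor kinds were also left out.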
